A study of Mus musculus with 4 samples.

Results

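S100 proteins are a family of small calcium-binding proteins, and 10 of their genes were followed here across 4 libraries of mRNA sequencing from mouse kidney medulla: S100a1, S100a4, S100a6, S100a8, S100a9, S100a10, S100a11, S100a13, S100a16 and S100b. They were chosen by gene symbol, which was paired with the Entrez identifier of each row, and all 10 were found among the 27179 genes of the deposited table. All 10 also reached the mean of 10 normalized read counts that a gene needed to be tested, as did 16253 genes in all. The libraries came from mice at postnatal day 14 on a background given as C57BL/6 mixed. One group of 2 carried the label of wild type controls (Actr3 WT). The other group of 2 carried the label Actr3 KO and the genotype Actr3-fl/fl*Cdh16-Cre, in which a floxed Actr3 is combined with a Cre transgene. Actr3 encodes a core subunit of the Arp2/3 complex, which nucleates branched actin filaments. Cdh16, whose promoter drives Cre here, is the kidney-specific cadherin of tubule epithelium, so that blood vessels, stroma and immune cells of these mice are not its target. The labels do not say whether the controls carried a floxed allele or Cre.

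Each S100 protein holds a pair of EF-hand motifs, helix-loop-helix folds that bind calcium, and most form dimers. Inside the cell, calcium opens a surface on the dimer that binds partner proteins such as annexins and myosin. Some members also leave damaged or activated cells and then act as alarmins, signals of tissue damage that are read by receptors such as TLR4 and RAGE (gene Ager); S100a8 and S100a9, which pair as calprotectin, are the best-known of these and are stored in large amounts in neutrophils.

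Between 36482238 and 40784436 reads per library were recovered from the values. The targeted gene did not follow its label: Actr3 had 8065 and 7275 normalized read counts with the WT label, but 12587 and 12480 with the KO label. A count over the whole gene does not show whether an exon was deleted, so the names WT-labelled and KO-labelled are used throughout, and each direction rests on those labels. The thick ascending limb gene Slc12a1 and the collecting duct water channel gene Aqp2, both listed as medullary tubule markers, were at 27437 or above in both WT-labelled libraries. With the KO label Slc12a1 read 39222 and 28751, and Aqp2 6961 and 4576. Markers of cortical segments were present too, with summed counts of 34892 and 50452 in the WT-labelled libraries against 11551 and 18618. The labels name 2 animals of each genotype, without tying a library to an animal. The limma p-values weigh each difference against the spread between libraries of a group, estimated with help from all genes tested. In bulk tissue, more cells of a type and more RNA per cell cannot be told apart.

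Of the 10 genes, 4 rose in the KO-labelled libraries: S100a6, S100a11, S100a16 and S100a10 (limma, adjusted p under 0.05). Across all genes tested, 26.3% were called higher by the same rule and 51.2% in either direction. None of the 10 was called lower, against 24.9% of all genes; at an unadjusted p under 0.05 the count was 1, S100a4. After adjustment edgeR called 4 higher and 1 lower, beside 25.8% and 25.3% of all genes, and DESeq2 called 4 and 0, beside 24.6% and 23.5%. The other 6 did not pass the threshold. The median log2 difference of the 10 was 0.43, beside 0.00 over all genes tested. In 7 of the 10 both KO-labelled libraries lay above both WT-labelled ones, and in 1, S100a4, below; 39.8% and 38.7% of all genes tested were separated in those directions, 78.5% in either. Each difference takes the mean log2(value + 1) with the KO label and subtracts that with the WT label, a scale that makes changes of low genes look smaller; a fold divides one mean count by the other.

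The libraries differed in marker genes of many cell types. All 10 markers of injured tubule rose, with summed counts of 57400 and 60897 under the WT label and 597004 and 500105 under the KO label. Most of these sums came from 1 gene, Spp1, at 43049 and 46830 against 427510 and 366760. The median log2 difference of the 10 was 3.71. All 10 endothelial markers fell, with sums of 87204 and 88057 against 29909 and 28788. Of 14 medullary tubule markers 11 fell and 1 rose, and of 12 urothelial markers 10 fell and 1 rose. Across all genes tested, 26.3% were called higher and 24.9% lower by the same rule. The part of these shifts in the S100 values was not tested.

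**Figure D1:**
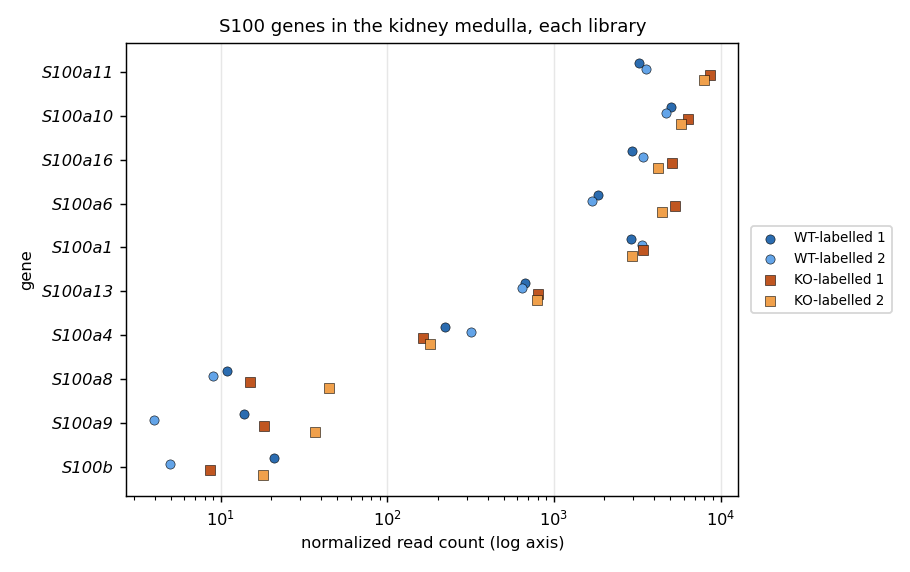
Normalized read count on a log axis for each of the 10 S100 genes, with 1 point per library (circles WT-labelled, squares KO-labelled), ordered by mean. S100a11 and S100a6 show the widest gaps between groups among the abundant genes, while S100a8, S100a9 and S100b lie at or below 44.3 in every library.

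The genes spanned a wide range of levels. Per kilobase of annotated exon, the WT-labelled means were 6634 normalized counts for S100a11, 4513 for S100a1, 4013 for S100a10, 1974 for S100a16, 1284 for S100a6, 919 for S100a13 and 461 for S100a4. S100a9, S100a8 and S100b followed far below, at 17.0, 14.2 and 8.64 per kilobase. Within that order S100a1 (4187 and 4840) and S100a10 (4159 and 3868) were separated by little, and the ranges of the 3 lowest genes overlapped. The first ranks depend on the length used: per kilobase of coding sequence the order began with S100a10, S100a11 and S100a1. In the KO-labelled libraries S100a11 led with 16296 per kilobase, and S100a6, at 3577, stood above S100a16, at 2879.

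S100a11 and S100a10 are the members best known for binding annexins, S100a11 with annexin A1 and S100a10 in a tight complex with annexin A2 at the plasma membrane. S100a11 had 3223 and 3557 normalized counts in the WT-labelled libraries, against 8695 and 7959. Both KO-labelled values were more than any WT-labelled value, and the distance was several times the spread within either group. The mean rose 2.46-fold, from 3390 ± 237 to 8327 ± 521 (SD, n = 2). On the log2 scale this was 1.30 with an SE of 0.088 (limma, adjusted p = 5.54e-05). An annotated pseudogene, S100a11-ps on chromosome 12, held only 11.8, 12.9, 11.8 and 6.59 counts, so few reads were assigned to that copy. The call held in all 15 alternative settings.

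S100a10 changed far less. Its counts were 5041 and 4688 against 6342 and 5794, and the groups did not overlap. The mean rose 1.25-fold, which was 0.32 in log2 with an SE of 0.084 (limma, adjusted p = 0.0177). It no longer passed when WT replicate 2 (adjusted p = 0.0785), KO replicate 1 (0.123) or the variance trend (0.0755) was left out.

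Both annexin partner genes rose as well. Anxa1, whose protein binds S100a11, had 1852 and 1992 counts against 6807 and 6256. Its mean rose 3.40-fold (1.76 in log2, SE 0.085, limma adjusted p = 1.59e-05). Anxa2, the partner of S100a10, rose 1.41-fold, from 11676 ± 143 to 16510 ± 1305 (SD, n = 2; log2 difference 0.50, adjusted p = 0.00292). Ahnak, a giant scaffold protein that docks on the annexin A2 and S100a10 complex, read 20156 and 16406 against 23614 and 20935 and did not pass the threshold (log2 difference 0.29, 95% interval 0.01 to 0.57, adjusted p = 0.0812); it did without WT replicate 1 (adjusted p = 0.0302). The calcium channels Trpv5 and Trpv6, which S100a10 helps carry to the membrane, had the largest differences among the 24 partners tested. Trpv6 went from 161 and 105 to 2129 and 1471, a 13.5-fold rise, and Trpv5 from 32.5 and 108 to 911 and 427, a 9.50-fold rise (log2 differences 3.76 and 3.37, limma adjusted p = 4.95e-05 and 0.00272). The Trpv5 difference was 2.51 without WT replicate 1 and 4.22 without WT replicate 2. Of the cell surface plasminogen system that S100a10 takes part in, the activator Plau fell 2.35-fold and its receptor Plaur rose 1.85-fold, Plat had a log2 difference of -0.06 (adjusted p = 0.689), and Plg had no reads in any library.

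S100a6, calcyclin, is abundant in many epithelia and fibroblasts and binds Cacybp, Sugt1 and annexin A11. It had 1829 and 1681 counts where the label was WT and 5306 and 4472 where it was KO. The groups lie well apart in the plot of values by library. The rise was 2.79-fold, from 1755 ± 105 to 4889 ± 590 (SD, n = 2). It amounted to 1.47 in log2 (SE 0.105, limma adjusted p = 6.67e-05) and was called in all 15 alternative settings. The genes of its binding partners differed in direction and in call. Cacybp had a log2 difference of 0.12 (95% interval -0.09 to 0.32, adjusted p = 0.293). Sugt1 rose by 0.29 (adjusted p = 0.0232), but it did not pass once WT replicate 1 (adjusted p = 0.0706), WT replicate 2 (0.0651) or KO replicate 1 (0.156) was removed. Anxa11 fell by 0.37 on the log2 scale (adjusted p = 0.0468); without WT replicate 1, WT replicate 2 or KO replicate 2 its adjusted p was 0.0923, 0.18 or 0.256.

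Promoter windows are shown for S100a6 and S100a11 because these genes had the largest called differences among the 10. The windows run from 250 bases before to 50 after the annotated start (RefSeq, GRCm38.p6, plus strand for both), at chr3:90612644-90612943 and chr3:93520246-93520545. Capitals mark matches, on either strand, to the motifs searched: AP-1 (TGANTCA), C/EBP (TTNNGNAA, which includes TTGCGCAA), TEAD (GGAATG), the NF-kB consensus and the SRF CArG box.
S100a6: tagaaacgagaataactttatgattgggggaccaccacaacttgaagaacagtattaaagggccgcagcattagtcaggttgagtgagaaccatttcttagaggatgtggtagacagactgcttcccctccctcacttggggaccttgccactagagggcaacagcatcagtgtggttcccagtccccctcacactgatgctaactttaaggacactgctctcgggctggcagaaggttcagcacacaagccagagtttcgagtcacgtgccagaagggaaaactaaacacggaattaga
S100a11: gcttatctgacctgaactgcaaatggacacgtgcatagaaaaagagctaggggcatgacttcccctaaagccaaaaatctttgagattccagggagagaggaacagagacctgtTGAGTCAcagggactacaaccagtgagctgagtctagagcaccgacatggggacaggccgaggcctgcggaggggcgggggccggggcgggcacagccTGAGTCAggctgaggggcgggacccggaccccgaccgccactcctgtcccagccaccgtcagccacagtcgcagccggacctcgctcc
The S100a11 window held 2 AP-1 matches, starting at -136 and -38 relative to the start site. One of the windows of S100a16 held an AP-1 match at -192. Of all 32851 promoter windows of this length, 7.81% held at least 1 such match. The S100a6 window held none of these letters. Windows were found for 9 of the 10 genes; S100a10 had none in the table used. NF-kB, TEAD and CArG letters occurred in 0 of the 10 member windows, and in 0.411%, 14.7% and 1.63% of all windows.

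S100a16, a widely expressed member, was the fourth gene called. It read 2960 and 3423 against 5097 and 4215, and the groups did not overlap. The rise was 1.46-fold, from 3192 ± 328 to 4656 ± 624 (SD, n = 2), or 0.54 in log2 with an SE of 0.118 (limma, adjusted p = 0.00804). With the variance trend left out the adjusted p was 0.0534.

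**Figure D2:**
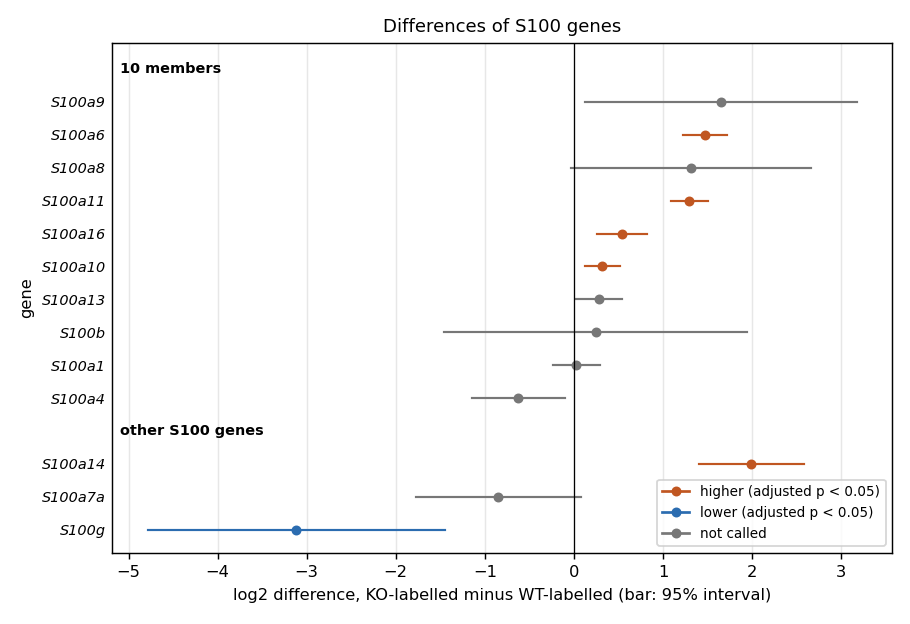
Log2 difference (point) with its unadjusted 95% interval (bar) from limma for the 10 S100 genes and for the 3 other S100 genes tested, coloured by call. S100a6 and S100a11 have short intervals far from 0, whereas those of S100a8, S100a9 and S100b are several times wider.

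S100a4, also called fibroblast-specific protein, binds non-muscle myosin and is used as a marker of fibroblasts and of some macrophages. It read 221 and 318 against 163 and 181, so that both KO-labelled values were lower. The means were 269 ± 68.9 and 172 ± 12.6 (SD, n = 2), with a log2 difference of -0.62 (SE 0.221, 95% interval -1.15 to -0.10) and a limma adjusted p of 0.0507, just short of the threshold. The adjusted p ranged from 0.0278 to 0.262 over 15 alternatives and was under 0.05 in 7 of them; without WT replicate 1 it was 0.0278, and without WT replicate 2, 0.262. Fibroblast and myofibroblast markers stood the other way in the same libraries. Of 13, 10 rose, beside 26.3% of all genes tested. Their median log2 difference was 1.61, with summed counts of 229430 and 238601 against 602330 and 691533. Vim rose 2.81-fold, and Col1a1 5.97-fold, and Thy1 rose by 3.70 in log2, whereas the pan-fibroblast receptor gene Pdgfra had a log2 difference of -0.10 (adjusted p = 0.489). Most macrophage and monocyte markers stood higher as well, with 16 of 18 called higher and 1, Mertk, called lower (log2 difference -0.83, limma adjusted p = 0.00531). The shares of all genes tested were 26.3% higher and 24.9% lower. The summed counts of these 18 markers were 17078 and 16972 against 66655 and 66742, and their part in the S100a4 values was not tested. Myh9, the myosin heavy chain that S100a4 binds, rose 1.58-fold (log2 difference 0.66, adjusted p = 0.00146), and its relative Myh10 had a log2 difference of 0.03 (adjusted p = 0.782).

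S100a13 takes part in the release of Fgf1 and Il1a, proteins that lack a signal peptide. Its counts were 671 and 644 against 803 and 794. The values were tight within each group and did not overlap, yet the log2 difference of 0.28 (SE 0.108, 95% interval 0.02 to 0.54) did not pass (limma adjusted p = 0.0659) and passed in 0 of 15 alternatives. Fgf1 fell 1.75-fold, from 6830 ± 392 to 3906 ± 155 (SD, n = 2; adjusted p = 0.000276). Il1a rose from 3.94 and 7.95 to 40.8 and 48.0 (log2 difference 2.77, adjusted p = 0.00255), and it reached the level for testing only through the KO-labelled values.

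S100a1, best known from heart and skeletal muscle where it binds the ryanodine receptor and the calcium pump SERCA, was among the most abundant members and did not differ detectably. It read 2906 and 3359 against 3441 and 2933, with overlapping groups and a log2 difference of 0.02 (95% interval -0.24 to 0.29, limma adjusted p = 0.87). Ryr2 had a log2 difference of 0.01 (adjusted p = 0.947), and the pump gene Atp2a2 fell 1.35-fold (adjusted p = 0.00405). S100a1 and S100a13 lie head to head on opposite strands of chromosome 3 and overlap by 98 bases in the RefSeq table, and 204 of the 300 bases of their promoter windows are shared. The strand setting of the counting is not given in the sources used here, so reads from the overlap can belong to either gene.

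The alarmins S100a8 and S100a9 were scarce in every library. S100a8 had 10.8 and 8.95 normalized counts with the WT label against 15.0 and 44.3, from 11, 9, 14 and 47 reads. S100a9 had 13.8 and 3.98 against 18.2 and 36.7, from 14, 4, 17 and 39 reads. Both genes were highest in KO replicate 2 and close to the WT-labelled range in KO replicate 1. Their WT-labelled means of 9.89 ± 1.34 and 8.88 ± 6.94 (SD, n = 2) lay below the mean needed for testing, so the genes were tested only because of the KO-labelled values. Neither passed: the log2 differences were 1.31 (SE 0.569, 95% interval -0.03 to 2.66, limma adjusted p = 0.0931) and 1.65 (SE 0.645, 0.13 to 3.18, adjusted p = 0.0686). Whether they passed depended on single libraries. Without KO replicate 1, S100a8 had a log2 difference of 2.06 (adjusted p = 0.0149) and S100a9 one of 2.14 (0.0477); without KO replicate 2 they had 0.56 (0.473) and 1.16 (0.249). Without WT replicate 1 the S100a9 value was 2.44 (adjusted p = 0.0274). The number of S100a8 reads per S100a9 read was 0.786 and 2.25 with the WT label against 0.824 and 1.21 with the KO label.

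The promoter windows of this pair are shown because the genes encode the subunits of calprotectin and C/EBP factors are known regulators of myeloid genes. They lie at chr3:90668821-90669120 (plus strand) and chr3:90695672-90695971 (minus strand, printed 5′ to 3′ along the gene), with the same motifs in capitals.
S100a8: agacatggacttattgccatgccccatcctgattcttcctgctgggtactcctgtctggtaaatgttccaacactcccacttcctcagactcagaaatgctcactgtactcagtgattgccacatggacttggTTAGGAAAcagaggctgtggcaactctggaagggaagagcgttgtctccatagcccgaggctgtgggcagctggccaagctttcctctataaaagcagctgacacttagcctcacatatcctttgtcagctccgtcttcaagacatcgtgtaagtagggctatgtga
S100a9: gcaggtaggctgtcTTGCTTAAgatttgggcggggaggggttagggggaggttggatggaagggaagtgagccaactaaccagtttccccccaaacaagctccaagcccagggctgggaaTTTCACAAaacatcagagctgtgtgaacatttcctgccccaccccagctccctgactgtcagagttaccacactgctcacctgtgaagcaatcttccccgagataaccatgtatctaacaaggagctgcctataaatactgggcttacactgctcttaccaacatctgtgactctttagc
S100a8 held 1 match to the C/EBP letters and S100a9 held 2, and no other member window held any; 13365 of all 32851 windows hold at least 1.

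Neutrophils are the usual source of both proteins, and their markers gave a mixed picture here. Ly6g, their defining surface marker in mice, had no reads with the WT label and 1.07 and 1.88 normalized counts with the KO label. The granule genes Mpo, Elane, Ctsg, Camp, Ltf, Ngp, Retnlg and Fcnb stayed at or below 9.42 in every library, Fcnb at 0 in all 4, and Cebpe, a factor of granulocyte maturation, at or below 5.91. Another pair of granule genes was higher: Prtn3 rose from 6.89 and 2.98 to 97.6 and 79.1 and Mmp8 from 0 and 2.98 to 38.6 and 20.7 (limma adjusted p = 0.000476 and 0.00583). Cxcr2 read 0.985 and 0.994 against 18.2 and 13.2. Csf3r, the receptor of the granulocyte growth factor, rose from 164 and 148 to 224 and 259. The remaining 4 genes of the list of 18 rose as well: Mmp9 rose from 33.5 and 61.6 to 530 and 576, Il1r2 from 8.86 and 4.97 to 89.0 and 110, Padi4 from 1.97 and 3.98 to 82.6 and 112, and Clec4d from 1.97 and 0 to 138 and 122 (limma adjusted p between 0.000122 and 0.00036). These genes are not made by neutrophils alone, and Prtn3, Mmp8, Il1r2, Padi4 and Clec4d reached the level for testing only through the KO-labelled values. The summed counts of the list were 238 and 245 against 1239 and 1323. The largest single item of these sums was Csf3r with the WT label and Mmp9 with the KO label. The part of neutrophils in the S100a8 and S100a9 values was not tested.

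Signals that draw or sustain neutrophils stood higher in the KO-labelled libraries. The chemokine gene Cxcl1 rose from 34.5 and 32.8 to 251 and 255 (log2 difference 2.88, limma adjusted p = 9.02e-05). Cxcl5 rose from 0 and 6.96 to 219 and 469, Cxcl2 from 1.97 and 6.96 to 84.7 and 71.6, and Il1b from 33.5 and 59.6 to 275 and 325. Csf3, the granulocyte growth factor gene, read 3.94 and 5.96 against 34.3 and 29.2 (adjusted p = 0.00372). Il17a had no reads in any library. Cxcl2, Cxcl5 and Csf3 were tested only because of their KO-labelled values. Summed over the list of 8, counts were 75.8 and 112 against 881 and 1164; their part in the S100a8 and S100a9 values was not tested.

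**Figure D3:**
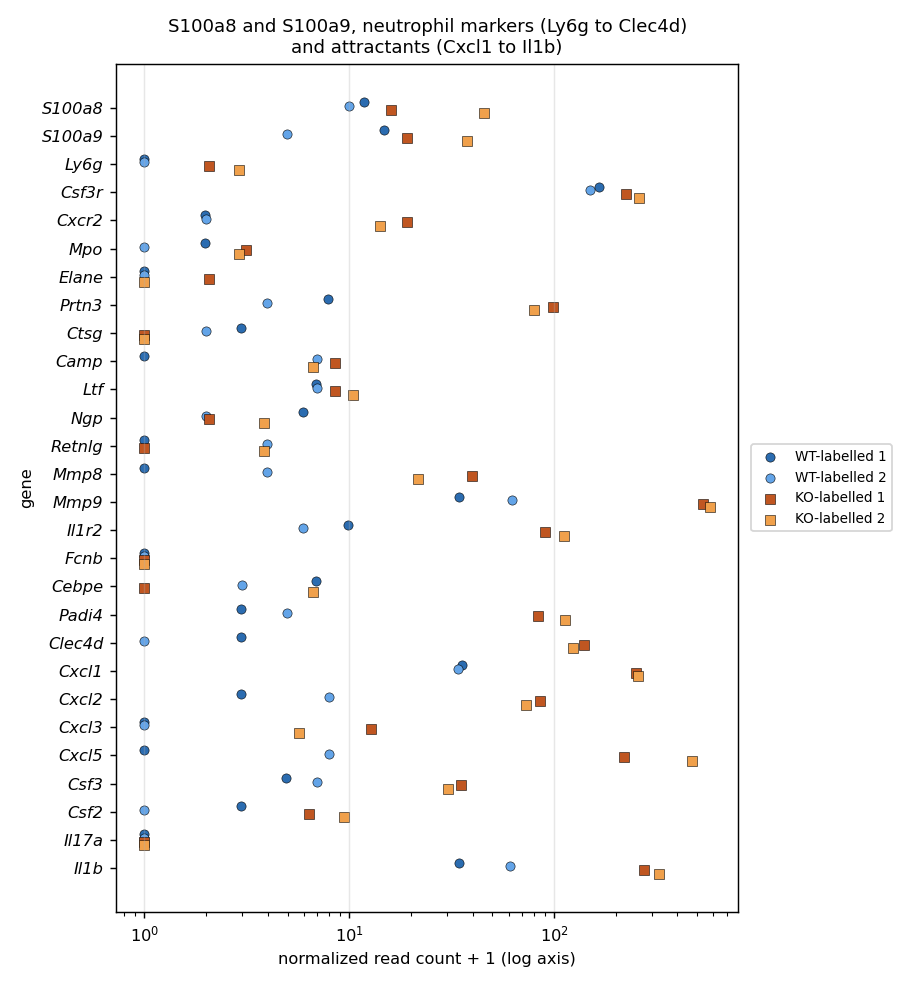
Normalized read count plus 1 on a log axis for S100a8 and S100a9, the 18 neutrophil markers and 8 neutrophil attractants and related cytokines, with 1 point per library. Ly6g and most granule genes lie at the left in every library, while Prtn3, Mmp9, Padi4, Clec4d, Cxcl1 and Cxcl5 lie far apart between the groups.

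Among the 14860 other tested genes with a given name, those with the pattern most like S100a8 over the 4 libraries (Euclidean distance of centred log2 values) were Cdsn, Sfrp4 and Ltb4r1, at distances of 0.319, 0.327 and 0.403. For S100a9 they were Chp2, Adgre4 and Ly6c2, at 0.160, 0.217 and 0.285. S100a9 ranked 503 in likeness to S100a8, and S100a8 ranked 182 in likeness to S100a9, at the same distance of 1.06. No value of S100a8 or S100a9 behind these distances rests on more than 47 reads.

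S100b is made by Schwann cells and other glia and by adipocytes. It read 20.7 and 4.97 against 8.58 and 17.9 (21, 5, 8 and 19 reads), and the groups overlapped fully. The log2 difference of 0.24 had a 95% interval of -1.45 to 1.94 (limma adjusted p = 0.797), too wide at this depth to place the difference on either side of 0. Of 9 glial markers tested, 2 rose and 3 fell, beside 26.3% and 24.9% of all genes tested. Sox10, too low to be tested, read 0 and 1.99 against 17.2 and 17.0, and Mbp rose 2.08-fold (adjusted p = 0.000256). Of 7 fat cell markers, Adipoq, Plin1, Cidec, Lep and Retn were at or below 18.8 in every library and were not tested. Fabp4, which capillaries also express, fell 8.53-fold, from 9392 and 7873 to 927 and 1098 (adjusted p = 9.04e-06). Cfd rose from 0 and 6.96 to 11.8 and 64.1 (adjusted p = 0.0428) and was tested only because of its KO-labelled values. The part of glia and fat cells in the S100b values was not tested. Stk38, a kinase that S100b binds, had a log2 difference of 0.05 (adjusted p = 0.556).

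Receptors and adaptors for extracellular S100 proteins formed a list of 12, of which 7 rose and 1 fell. Of all genes tested, 26.3% were called higher and 24.9% lower. The median log2 difference of the list was 0.49, beside 0.00 over all genes tested. Tlr4, the receptor of S100a8 and S100a9, rose 2.18-fold, from 653 ± 2.78 to 1423 ± 75.0 (SD, n = 2; log2 difference 1.12, limma adjusted p = 0.000175). Its co-receptor genes rose with it: Cd14 went from 501 and 471 to 3630 and 3702, a 7.54-fold rise, and Ly96 rose 1.89-fold. Myd88, the adaptor below TLR4, rose 1.73-fold, while the alternative adaptor Ticam1 had a log2 difference of 0.07 (adjusted p = 0.643). Cd33, a lectin of myeloid cells reported to bind S100a9, rose 3.33-fold. Ager, which encodes RAGE, read 133 and 107 against 174 and 180 and did not pass (log2 difference 0.56, 95% interval 0.07 to 1.05, adjusted p = 0.057). Cd14, Tlr4 and Cd33 are also genes of macrophages, whose markers summed to 17078 and 16972 counts against 66655 and 66742; their part in these rises was not tested.

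The adhesion molecule genes Mcam and Alcam, whose products bind S100a8 with S100a9 and S100b, rose by log2 differences of 0.42 and 0.42 (limma adjusted p = 0.00402 and 0.0133). Alcam did not pass with WT replicate 2 (adjusted p = 0.0698) or KO replicate 2 (0.0787) removed. Bsg, basigin, a receptor of S100a9, was abundant at 19047 and 23372 against 17094 and 16894 and fell 1.25-fold (adjusted p = 0.0491). Removing WT replicate 2, KO replicate 1 or KO replicate 2 gave adjusted p of 0.198, 0.134 and 0.145. Nptn, a relative of basigin that binds S100a8, and Cd36 had log2 differences of -0.07 and 0.03, with adjusted p of 0.415 and 0.811.

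**Figure D4:**
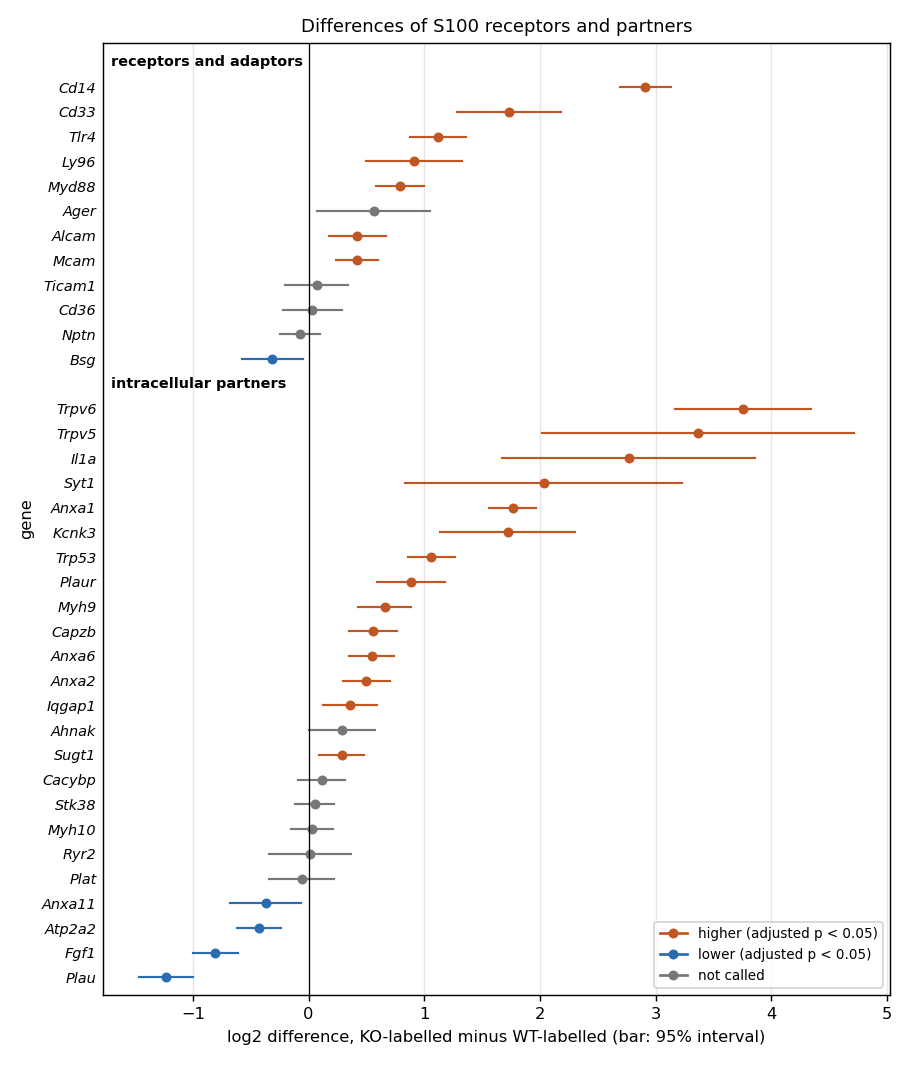
Log2 difference (point) with its unadjusted 95% interval (bar) from limma for 12 receptors and adaptors and the 24 tested intracellular partners of S100 proteins, coloured by call. Cd14, Trpv6, Trpv5 and Anxa1 stand far to the right, and Plau and Fgf1 to the left.

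Of 25 intracellular partners 24 were tested; 14 rose and 4 fell, beside 26.3% and 24.9% of all genes tested, with a median log2 difference of 0.43. Il1a and Syt1 are among the 14 and were tested only because of their KO-labelled values. Beside those already given, the annexin gene Anxa6 rose 1.46-fold, the scaffold gene Iqgap1 1.28-fold, the actin capping gene Capzb 1.47-fold and Trp53, whose product several S100 proteins bind, 2.09-fold. Kcnk3, a potassium channel gene, rose 3.37-fold.

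The remaining members of the family were mostly close to silent. S100a14, an epithelial gene that lies between S100a13 and S100a16, read 425 and 279 against 1674 and 1126, a 3.97-fold rise (log2 difference 1.99, SE 0.248, limma adjusted p = 0.000698). S100g, the vitamin D dependent calbindin of the distal tubule, fell 11.8-fold on means that varied widely: it read 359 and 1973 against 74.0 and 124 (log2 difference -3.12, SE 0.704, adjusted p = 0.00935). Without WT replicate 1 the S100g difference was -4.35 and without WT replicate 2 it was -1.89, and its adjusted p was 0.0633 once the variance trend was dropped and 0.116 once it was made robust. Markers of the distal tubule were also higher in WT replicate 2 than in WT replicate 1, with Slc12a3 at 877 and 3085 against 177 and 334, and Calb1 at 617 and 2475 against 191 and 211. Trpm6, a magnesium channel gene of the distal convoluted tubule, was also higher in WT replicate 2 but went the other way between groups, rising 5.10-fold from 92.6 and 248 to 903 and 838 (adjusted p = 0.00218), and Trpv5 rose too, as given above. Of the 10 cortical segment markers 8 fell and 1, Trpm6, rose, beside 24.9% and 26.3% of all genes tested. The part of these markers in the S100g difference was not tested. S100a7a read 22.7 and 23.9 against 11.8 and 13.2 (adjusted p = 0.111). S100a3, S100a5 and S100z stayed at or below 9.65 and were not tested, and S100a7l2 had no reads. S100a2, named after its values were seen, was at or below 2.98.

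On chromosome 3 most of the family falls into 2 groups of neighbours (GRCm38.p6), and S100a7l2 lies between them. The first, from S100a1 to S100a9 (90511034 to 90695721), held 15 annotated genes. All 9 tested there were S100 genes, of which 3 rose and 0 fell, beside 26.3% and 24.9% of all genes tested. S100a16 and S100a6 rose, whereas S100a4, which lies between them, was lower without passing. The second, S100a11 and S100a10 (93520496 to 93564645), held 2 tested genes, and both rose. Of 83 annotated genes between these groups, most of them genes of skin keratinization, 56 were in the table, 32 had no reads at all and 7 were tested. The tested ones went both ways, with Sprr2f, Sprr2g and Tchh higher and Sprr1a and Sprr2a3 lower; these were named after their values were seen. Sprr2f was tested only because of its KO-labelled values and Sprr2a3 only because of its WT-labelled ones, and Sprr2 genes have near-identical copies whose reads can be split. S100b lies on chromosome 10 (76253836 to 76261319).

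Summed over the 10 members, S100 transcripts took 0.0424% and 0.0441% of all normalized counts in the WT-labelled libraries and 0.0764% and 0.0688% in the KO-labelled ones. The make-up shifted with the sum. Per kilobase of exon, S100a11 went from 32.9% and 34.0% of the set to 47.7% and 48.6%, and S100a6 from 6.97% and 6.00% to 10.9% and 10.2%. The share of S100a1 was lower in the KO-labelled libraries, at 21.8% and 23.6% against 13.9% and 13.2%, although its own counts overlapped between the groups. S100a8 and S100a9 together with S100b made up less than 1% in each library, S100a8 at most 0.199% and S100a9 at most 0.22%.

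**Figure D5:**
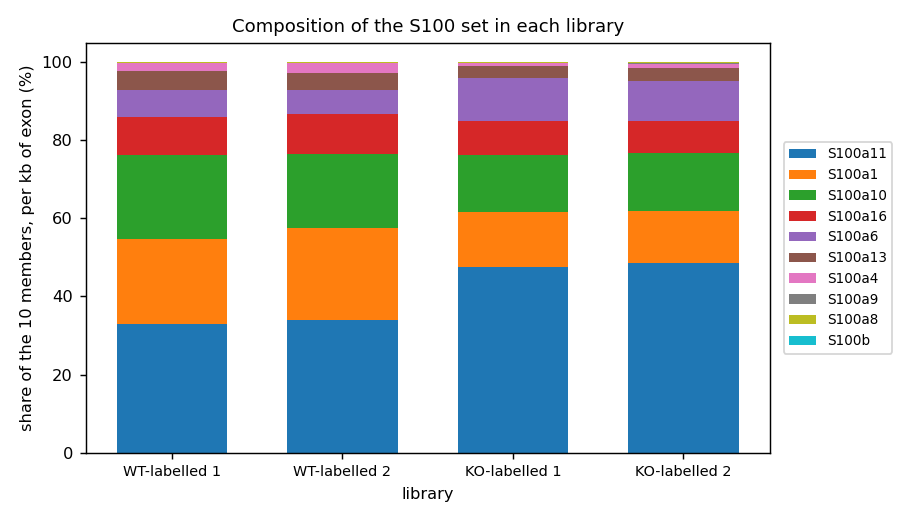
Stacked bars of the share of each of the 10 S100 genes in their sum, per kilobase of exon, in each library. The S100a11 segment grows from 32.9% and 34.0% in the WT-labelled to 47.7% and 48.6% in the KO-labelled libraries.

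Other EF-hand genes, a list of 22 of which 21 were tested, gave 10 rises and 4 falls, with a median log2 difference of 0.18. Of all genes tested, 26.3% rose and 24.9% fell by the same rule, and 51.2% were called in either direction. Efhd2, a calcium sensor of immune cells, rose 3.29-fold, and the endoplasmic reticulum proteins Rcn1 and Rcn3 rose 2.18-fold and 2.03-fold. The mitochondrial Efhd1 fell 2.86-fold, Gca 1.71-fold and Calml4 1.47-fold. Calb1 fell 7.69-fold, from WT-labelled values of 617 and 2475 that lay far apart. Calm2 and Calm3, which encode calmodulin, rose 1.38-fold and 1.29-fold.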

How the data were processed

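The deposited values are a signal: per the file headers they are featureCounts results per gene, which the authors divided by 1 size factor per library, as read from the values (100% are whole multiples, within 0.001, of 1 step per library). The submitters' processing notes name the tools DESeq2 2.11.40.7, featureCounts 2.0.1, HISAT2 2.2.1 with fastp 0.20.1, and mm10/GRCm38; neither annotation nor strand setting is given in the sources used here. Of 27179 Entrez IDs, 25275 matched a symbol in a RefSeq table of GRCm38.p6. Exon and coding lengths are unions over GENCODE vM21 (GRCm38) transcripts, retained introns included. limma 3.58.1 (R 4.3.3) with a variance trend was fitted to log2(value + 1) of all 16253 genes with a mean of at least 10, two-sided, Benjamini-Hochberg adjusted over all of them, after tests on simulated data. The alternatives changed the pseudocount, the filter, the scaling or the variance model, added a replicate block, used edgeR 4.0.16 and DESeq2 1.42.0 on recovered reads, or left out each library in turn. The S100 genes and all lists were chosen with earlier results of these data known. Named genes are the members, other S100 genes, listed receptors and partners, and up to 4 list genes with the smallest adjusted p; further names were chosen after their values were seen. Intervals of differences rest on the spread between libraries of a group, estimated with help from all genes tested.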

Additional observations from a re-analysis of the deposited data

How the results depend on the processing

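Results were recomputed under 15 alternatives. The count of S100 genes called higher was 4, and 2 with no variance trend; leaving out single libraries gave 3 to 5. The count called lower was 0, and 1 (S100a4) with a pseudocount of 5, a mean of at least 50, quantile normalization, a robust variance trend, edgeR and the replicate block; leaving out single libraries gave 0 to 1. Receptors called lower numbered 1, and 0 with no filter on low values, quantile normalization, no variance trend and the replicate block, with 0 to 1 when single libraries were left out. The other S100 genes called lower numbered 1, and 0 with a robust variance trend. Across all genes 3117 to 4305 were higher and 3085 to 4230 lower. Same-numbered libraries did not deviate together (r = -0.06 across genes), so the replicate block has no basis in the labels beyond the numbers; under it the S100a4 adjusted p was 0.0412. Signs turned only in S100a1, Ryr2 and Cd36, whose differences were near 0, and in S100b, whose difference was imprecise. With single libraries left out, S100a1 ranged from -0.091 to 0.139, Ryr2 from -0.17 to 0.20 and Cd36 from -0.0214 to 0.0888. S100b ranged from -0.69 to 1.17, on 21, 5, 8 and 19 reads. After quantile normalization Ryr2 was -0.0165 and Cd36 -0.0053. Of 535 such values for 36 named genes, 486 kept direction and side of the threshold, 27 lost and 13 gained a call. Causes were not tested. On the gene strand only, 1 member window held C/EBP letters. S100a8, S100a9 and S100b rest on 47 or fewer reads per library, which limits what can be seen of them.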
